A study of Mus musculus with 9 samples.

Results

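The genes described here encode the SR proteins, the hnRNPs and the related splicing regulators of the Tra2, PTB, MBNL and CELF families. The rule reads symbols and no measured value, and it was written with earlier results of these data known. It takes every Srsf and Hnrnp gene with Ptbp1 to Ptbp3, Mbnl1 to Mbnl3, Celf1 to Celf6, Tra2a and Tra2b. The rule found 45 of 19840 named genes, made up of 11 Srsf, 2 Tra2, 20 Hnrnp, 3 Ptbp, 3 Mbnl and 6 Celf genes. Where a gene had several transcript records, the record with the highest mean over the 9 libraries was used, and 17 of the 45 genes had several.

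The series profiled erythroid progenitors from the fetal liver of C57BL/6 mouse embryos at embryonic day 13.5 to 14.5 by RNA-seq, with 1 library in each of 9 conditions. Its title asks how HIF-1 and glucocorticoids act on the self-renewal of the BFU-E, the burst-forming erythroid progenitor. The 3 fresh libraries were BFU-E (Kit-positive, lineage-negative cells in the lowest 10% of CD71), CFU-E, the later colony-forming progenitor (the highest 20% of CD71), and erythroblasts that carried Ter119 and lacked Kit. The 6 cultured libraries came from BFU-E of 2 sorts: the CD71 sort, which took cells low in CD71, gave 2 libraries, and the CD71/CD24a sort, which also required low CD24a, gave 4. Cells spent 4 h in an expansion medium (serum-free, 100 ng/mL SCF, 40 ng/mL IGF-1, 2 U/mL EPO) and 4 h more with the agents. The CD71 sort received either water or Dex (dexamethasone, a synthetic glucocorticoid) at 100 nM. The CD71/CD24a sort received water, Dex alone, 333 µM DMOG alone, or both agents. DMOG, dimethyloxalylglycine, blocks the HIF prolyl hydroxylases and so keeps HIF from being degraded. The labels name no genotype, and the number of embryos behind a library was not given in the sources used here.

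SR proteins bind exons through RNA recognition motifs and recruit the splicing machinery through their arginine- and serine-rich tails, which SRPK and CLK kinases phosphorylate. The hnRNPs coat nascent transcripts and many of them repress splice sites, as the PTB proteins do at pyrimidine-rich tracts, while MBNL and CELF proteins often act in opposite directions on the same exons. Maturing erythroblasts are known for a late splicing switch in the transcript of membrane skeleton protein 4.1R, and Rbm38 and Mbnl1 are among the regulators studied in these cells. Several of these factors also splice their own transcripts into forms that nonsense-mediated decay removes, which gene-level values cannot resolve.

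The deposited values are RPKM, read counts scaled for transcript length and library size, and each library was divided by 1 scaling factor. Levels below are normalised RPKM, which are per length and can be compared between genes. Differences between libraries were taken after adding 1 to each level and taking log2, a scale that makes the change of low genes look smaller. The depth, read from the spacing of low RPKM values, was 11.86 to 52.82 M reads, lowest in the CD71 sort and highest in the DMOG cultures. The labels were checked on other genes: Kit was at 175 in fresh BFU-E, 83.0 in CFU-E and 2.45 in Ter119-positive cells, and Slc4a1, which encodes the red cell anion exchanger band 3, was at 4.12, 11.8 and 17890. Fkbp5, a classical glucocorticoid target, was at 21.6 to 22.9 in the cultures without Dex and 64.4 to 71.7 in those with Dex. Egln3, a HIF target, was at 1.48 and 5.65 in the CD71/CD24a cultures without DMOG and at 16.4 and 35.6 in those with DMOG. It was also higher with Dex, and in the CD71 sort, without DMOG, it was at 2.02 with water and 15.8 with Dex.

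Many splicing-factor genes have processed pseudogenes, and reads from such copies can be credited to the gene or lost. Sharing was measured on stretches of 32 bases, as the percent of those in a gene that also occur in another gene or pseudogene of the GRCm38 annotation. It reached 10% or more for 12 of the 45 genes (26.7%), against 16.1% of all 19298 genes with a value. The shares were 90.6% for Hnrnpa3, with 31 pseudogenes that hold at least 10% of it, 56.3% for Hnrnpf, 47.9% for Hnrnpa1, 43.1% for Hnrnpk and 39.2% for Hnrnph2. They were 36.8% for Srsf3, 36.4% for Srsf5, 21.9% for Srsf10, 20.6% for Tra2b, 20.2% for Hnrnpc, 16.7% for Ptbp1 and 10.9% for Hnrnpa2b1. How the authors treated reads that match several places was not given in the sources used here, so the levels of these 12 genes are uncertain. The coding windows of 60 bases below, read from the GRCm38 transcripts, show what is shared in genes that recur in the results, and capitals mark 32 bases that also occur in pseudogenes.

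Hnrnpa3: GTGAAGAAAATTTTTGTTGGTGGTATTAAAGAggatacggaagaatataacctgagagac
Hnrnpf: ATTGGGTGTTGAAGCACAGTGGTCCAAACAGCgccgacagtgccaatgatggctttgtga
Hnrnpa1: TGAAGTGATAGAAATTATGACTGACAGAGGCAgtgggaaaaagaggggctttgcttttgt
Tra2b: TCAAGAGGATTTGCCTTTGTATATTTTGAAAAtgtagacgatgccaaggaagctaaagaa

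The Hnrnpa3 window lies at bases 373 to 432 of a coding sequence of 1140 bases. Its capitals were found in 27 pseudogenes, and 19 of these held all 60 bases. The capitals of Hnrnpf were found in 6 pseudogenes, those of Hnrnpa1 in 11 and those of Tra2b in 6. All 60 bases were held by 4, 6 and 0 of these.

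The sequence before the start of transcription is shown for the 2 CELF genes that differed most between the fresh progenitors and for 2 SR protein genes that were higher in erythroblasts. The sequences are RefSeq's on GRCm38.p6, 100 bases that end at the base before the first listed start. Capitals mark any of 6 motifs that were searched on both strands.

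Celf2: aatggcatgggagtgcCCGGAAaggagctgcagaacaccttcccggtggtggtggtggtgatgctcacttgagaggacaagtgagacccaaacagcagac
Celf1: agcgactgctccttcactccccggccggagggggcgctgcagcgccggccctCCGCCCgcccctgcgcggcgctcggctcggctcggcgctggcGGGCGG
Srsf5: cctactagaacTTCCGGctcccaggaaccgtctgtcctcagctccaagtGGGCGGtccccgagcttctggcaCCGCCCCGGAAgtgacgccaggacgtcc
Srsf4: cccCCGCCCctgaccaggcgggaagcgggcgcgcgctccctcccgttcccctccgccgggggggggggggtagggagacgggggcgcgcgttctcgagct

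These stretches are chr2:7396199-7396298 on the minus strand for Celf2, chr2:90940297-90940396 on the plus strand for Celf1, chr12:80945399-80945498 on the plus strand for Srsf5 and chr4:131873537-131873636 on the plus strand for Srsf4. Their GC content was 57% for Celf2, 83% for Celf1, 66% for Srsf5 and 81% for Srsf4. Over the full window of 250 bases before to 50 after the start, 41 of the 45 genes had a RefSeq entry. GGGCGG was in 75.6% of these 41 promoters, in 67.8% of the 7612 promoters of genes at a mean of 1 or more in the cultures, and in 35.9% of all 27025 promoters. CCAAT was in 48.8%, 39.7% and 37.9%, CCGGAA in 31.7%, 32.8% and 15.2%, and CACGTG in 14.6%, 11.2% and 7.24%. TATAAA was in 17.1%, 5.91% and 14.2%, and AGATAA in 7.32%, 6.11% and 11.4%. CCGGAA and GGGCGG overlap in the Srsf5 sequence. These matches describe the letters only.

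Splicing-factor genes were among the more abundant transcripts of every library. The median of the 45 genes stood at the 90.8th to 95.5th percentile of all 19840 names, and 39 genes were at 1 or more in all 9 libraries. Hnrnpa2b1, an RNA-binding hnRNP of the A/B group, was at 395 in BFU-E, 331 in CFU-E, 535 in Ter119-positive cells, 313 to 327 in the CD71 sort and 501 to 661 in the CD71/CD24a sort. Hnrnpab, a close relative, was at 364, 364, 195, 340 to 349 and 351 to 400 in the same order. Srsf2, the SR protein also known as SC35, was at 349, 354, 372, 395 to 397 and 281 to 316. These were the 3 highest of the 45 in BFU-E and in CFU-E.

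At the other end, Srsf12 and Celf3 to Celf6 were under 1 in every library, with highest levels of 0.0463 for Srsf12 and 0.26 for Celf3. Ptbp2, known as the neuronal PTB protein, was at 1.74 to 4.47, while its paralog Ptbp1 was at 151 to 358. Mbnl1 was at 50.1 to 154, against 2.24 to 5.62 for Mbnl2 and 3.59 to 11.7 for Mbnl3. Celf1 was at 36.2 to 95.9. In all 9 libraries Ptbp1, Mbnl1 and Celf1 stood above the other members of their families. Of the summed RPKM of all genes, the 45 genes held 1.31% in BFU-E, 1.29% in CFU-E, 0.416% in Ter119-positive cells, 1.28% and 1.34% in the CD71 sort and 1.54% to 1.69% in the CD71/CD24a sort.

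**Figure D1:**
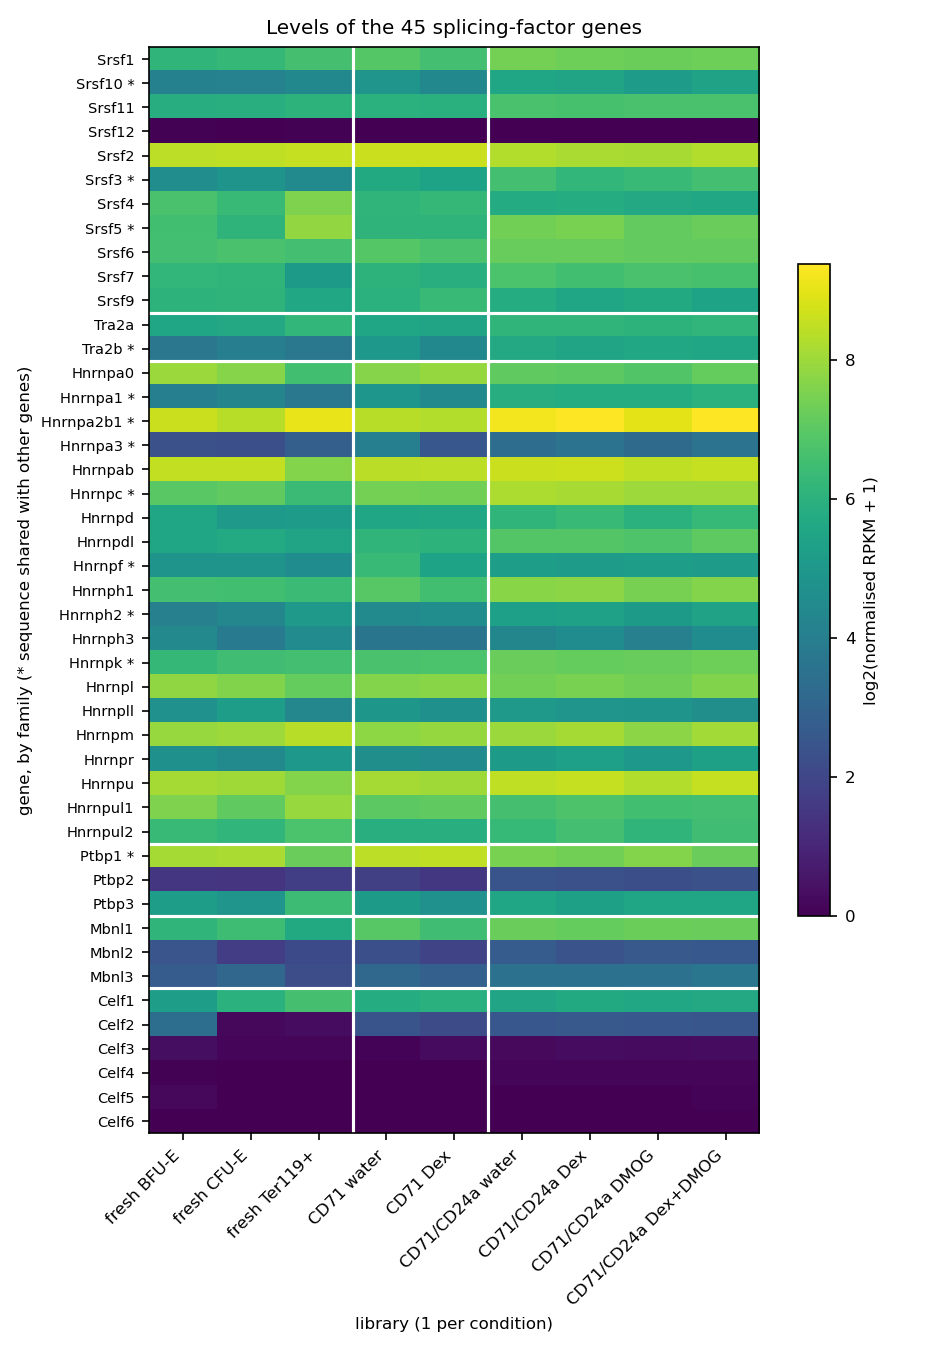
Levels of the 45 genes (rows, grouped by family, with asterisks for genes that share 10% or more of their sequence) in the 9 libraries (columns, 1 library each), as log2(normalised RPKM + 1). Celf3 to Celf6 and Srsf12 are dark in every column, and Celf2 is dark in fresh CFU-E and Ter119-positive cells and lighter elsewhere.

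From fresh BFU-E to fresh CFU-E most splicing-factor genes differed little, and Celf2 differed most. Of 40 genes at 1 or more in either library, 0 were at least 2-fold higher in CFU-E and 1 was at least 2-fold lower, and 37 were within 1.5-fold on the log2 scale with 1 added. The other 3 were Celf2, Celf1 and Mbnl2. The share of all genes within 1.5-fold was not computed, so the 37 cannot be set against it. Among all 9947 genes compared, 3.32% were at least 2-fold higher and 12.3% at least 2-fold lower. The median difference was 0.01 for the splicing-factor genes and -0.08 for all genes. With 1 library per stage these are differences between libraries, with no test and no replicate check. In bulk RNA, fewer cells of a kind and less RNA per cell cannot be told apart.

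Celf2, an RNA-binding protein that regulates splicing and mRNA stability, was at 9.45 in BFU-E, 0.162 in CFU-E and 0.232 in Ter119-positive cells. It was thus 58.5-fold lower in CFU-E than in BFU-E, from 1605 and 36 recovered reads. The exact (Clopper-Pearson) 95% interval of that fold was 42.4 to 84.5 and reflects counting error alone, as PCR copies are no independent molecules. In culture Celf2 was at 4.43 and 3.51 in the CD71 sort with water and Dex, and at 4.65 to 5.09 in the 4 CD71/CD24a libraries. All 6 cultured libraries were below fresh BFU-E and far above fresh CFU-E. Summed markers of other cells and of early progenitors, the latter with Kit, moved with Celf2 from BFU-E to CFU-E. The sum of 9 neutrophil markers went from 99.3 to 4.79 (3 and 2 of them at 1 or more, 2 and 1 at 0). That of 7 megakaryocyte markers went from 88.3 to 20.6, of 7 lymphoid markers from 9.30 to 1.03 and of 6 early progenitor markers from 518 to 151. Only 1 lymphoid marker was at 1 or more in BFU-E, Cd79b at 8.14. In Ter119-positive cells, with Celf2 at 0.232, the neutrophil, megakaryocyte and lymphoid sums were 204, 93.6 and 10.2. The early progenitor sum was 11.6 there. In the CD71/CD24a cultures, with Celf2 at 4.65 to 5.09, the neutrophil sum was 5.31 to 6.38 and the early progenitor sum 186 to 192. The part of such cells in the Celf2 difference was not tested.

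Celf1 went the other way, from 36.2 in BFU-E to 63.1 in CFU-E and 95.9 in Ter119-positive cells, a difference of 0.78 in the first step, inside the 2-fold rule. Mbnl2 was at 4.48, 2.24 and 3.30, a difference of -0.76 in the first step. Its level was 2.00-fold lower, and it lies inside the rule only because 1 is added to each level. Hnrnpll, which drives an exon-skipping switch of the CD45 transcript in lymphocytes, was at 25.5, 35.9 and 19.0. Hnrnpul1, a nuclear RNA-binding protein, was at 190, 135 and 239. On the scale with 1 added, each of these 4 genes stayed inside the 2-fold rule in both steps.

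From CFU-E to Ter119-positive erythroblasts, where most of the transcriptome shifts, few splicing-factor genes passed 2-fold relative to the typical gene. Of 39 compared, 3 were at least 2-fold higher and 2 at least 2-fold lower. Among all 9530 genes compared, 22.6% were at least 2-fold higher and 28.8% at least 2-fold lower. The median was 0.10 for the splicing-factor genes and -0.21 for all genes. These counts depend on the scaling: on RPKM as deposited the median of all genes was -1.30 and that of the splicing-factor genes -1.25. There 0 splicing-factor genes were at least 2-fold higher and 23 lower, against 8.46% and 60.3% of all genes. On that scale 37 of the 39 were lower in erythroblasts, so the differences below are relative to the typical gene.

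Srsf5, an SR protein, was at 90.8 in BFU-E, 66.7 in CFU-E and 230 in Ter119-positive cells, 3.44-fold higher in the last step (95% interval 3.26 to 3.64, counting error). Ptbp3, the PTB paralog also called Rod1, was at 35.9, 28.9 and 84.3, 2.91-fold higher (2.75 to 3.09). Srsf4, known as SRp75, was at 103, 77.6 and 189, 2.43-fold higher (2.32 to 2.54). On RPKM as deposited Srsf5 and Ptbp3 were still above their CFU-E values, by 0.41 and 0.17, and Srsf4 was below, at -0.09. In the step before, from BFU-E to CFU-E, the differences of Srsf5, Ptbp3 and Srsf4 were -0.44, -0.30 and -0.40, inside the 2-fold rule.

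Hnrnpa0, which binds AU-rich elements in mRNAs, was at 251, 202 and 92.3 in the 3 fresh stages, 2.18-fold lower in the last step. Srsf7, an SR protein with a zinc knuckle, was at 72.7, 69.2 and 33.4, 2.07-fold lower. Ptbp1 was at 277, 293 and 151, a difference of -0.95 just inside the 2-fold rule. Mbnl1 was at 69.5, 88.0 and 50.1, and Mbnl3 at 5.70, 7.44 and 3.59. Ptbp1 and Ptbp3 therefore differed in opposite directions across the last step, while Ptbp2 was at 1.80, 1.74 and 2.33.

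Other genes of the commonly studied set were closer to their CFU-E level. Srsf1 was at 69.3, 74.7 and 96.9 in BFU-E, CFU-E and Ter119-positive cells, Srsf3 at 23.3, 27.5 and 20.9, and Tra2a, a splicing activator related to SR proteins, at 44.9, 49.3 and 73.6. Tra2b was at 12.2, 15.3 and 12.5, Hnrnpa1 at 15.4, 18.1 and 12.6, and Hnrnpc, which packages nascent transcripts, at 124, 133 and 82.7. Hnrnpk, which binds C-rich RNA, was at 75.2, 88.4 and 94.7, and Hnrnpl, which binds CA repeats, at 223, 194 and 143. In the Ter119-positive library the summed level of 9 neutrophil markers was 204 against 4.79 in CFU-E, with all 9 at 1 or more, and that of the 8 macrophage markers found was 40.6 against 1.54. Their part in the differences of the last step was not tested.

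**Figure D2:**
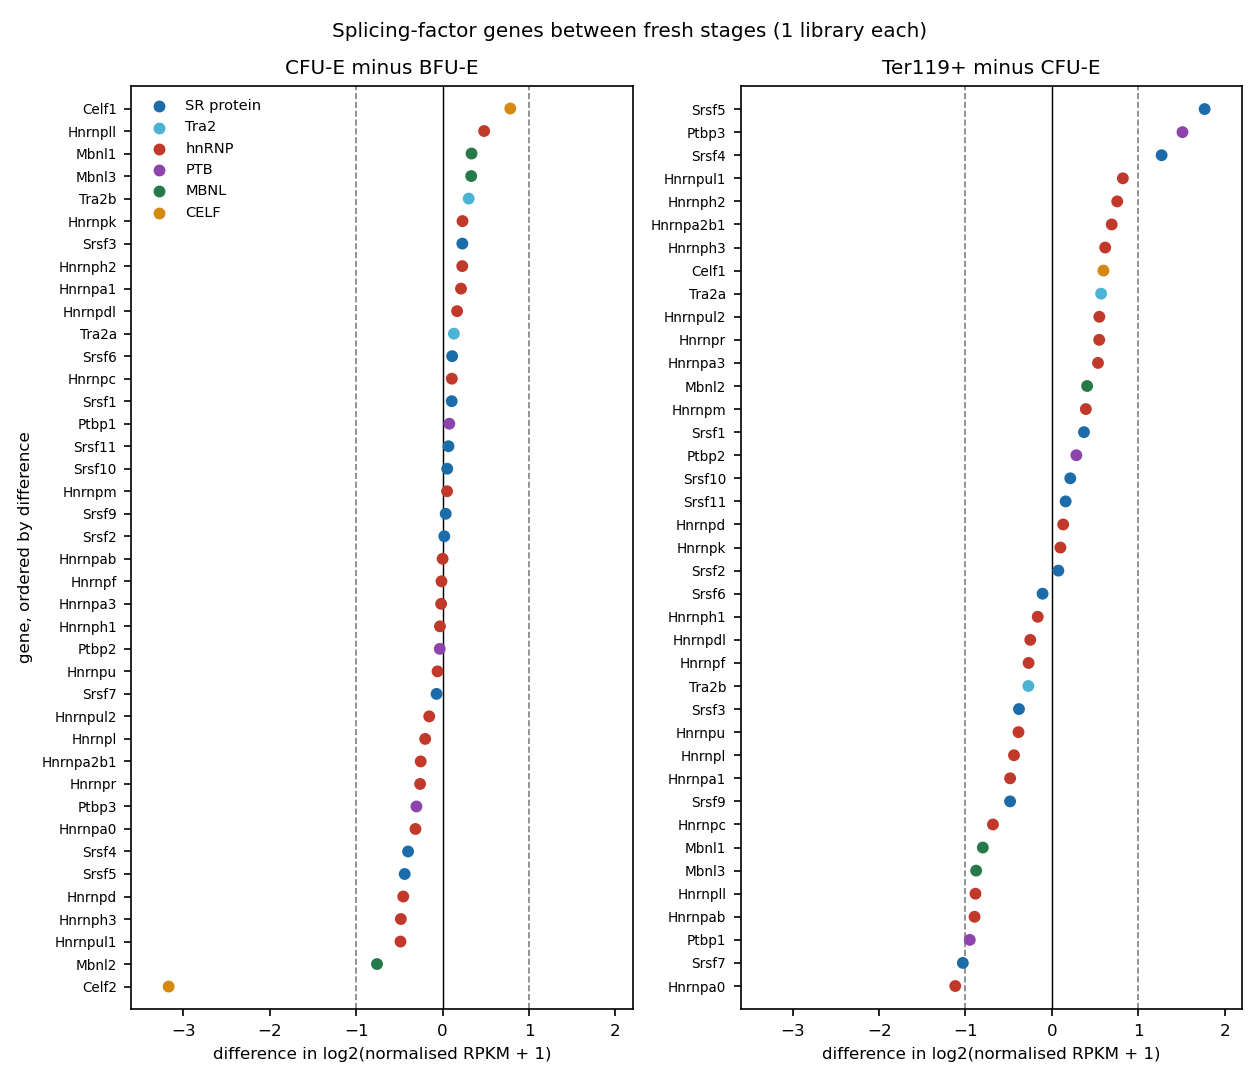
Differences in log2(normalised RPKM + 1) between fresh stages, 1 library each, for the genes compared (points, coloured by family, ordered by size), with dashed lines at 2-fold. In the left panel Celf2 alone lies beyond a dashed line, and in the right panel Srsf5, Ptbp3 and Srsf4 lie beyond the right line and Hnrnpa0 and Srsf7 beyond the left one.

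Genes that work with these factors were counted in the same step, where 22.6% of all genes were at least 2-fold higher and 28.8% lower. Of 45 core spliceosome genes compared, 1 was at least 2-fold higher in Ter119-positive cells and 11 lower, with a median of -0.47. Prpf19, the ubiquitin ligase that activates the spliceosome, was at 208 in CFU-E and 37.3 in Ter119-positive cells, and Slu7, a second-step factor, at 8.73 and 18.7. Of 14 genes for the kinases, methylases and importers that act on SR proteins and hnRNPs, 5 were higher and 4 lower. The CLK kinase genes Clk3, at 26.9 and 577, and Clk1, at 19.1 and 97.7, were higher, while the kinase gene Srpk1 had a difference of -2.68 and the arginine methyltransferase gene Prmt5 was at 68.4 and 9.07. Of 34 other splicing regulators 5 were higher and 2 lower, led by Rbm38, at 215 and 3283, and Fubp3, at 14.2 and 2.58. Of 14 genes of nonsense-mediated decay, 2 were higher (Smg5, 1.79, and Casc3, 1.22) and 2 lower (Magohb, -1.96, and Smg8, -1.05). These counts too are relative to the typical gene. On RPKM as deposited 0 core spliceosome genes were higher and 38 lower, 2 and 9 of the kinases, methylases and importers, 1 and 19 of the other regulators, and 0 and 7 of the decay genes. Of all genes 8.46% were at least 2-fold higher and 60.3% lower on that scale. In the step from BFU-E to CFU-E these 4 lists held 0, 0, 2 and 0 genes beyond 2-fold, and the 2 were Cirbp (-1.35) and Khdrbs3 (-1.17), both lower.

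Several genes with shared sequence were higher after culture than in fresh BFU-E. In the CD71 sort with water, 4 of 40 were at least 2-fold higher than in fresh BFU-E and 0 lower, against 6.27% higher and 9.06% lower among all 10060 genes. They were Hnrnpa3, at 4.00 in fresh BFU-E and 15.5 in culture, Hnrnpf, at 27.8 and 81.4, Tra2b, at 12.2 and 30.9, and Srsf3, at 23.3 and 50.6. All 4 belong to the 12 genes with shared sequence, and 0 of the other 28 passed. How many of all genes with shared sequence passed was not computed, so this split has no background. Celf2 was 2.13-fold lower in level, at -0.94 on the log2 scale of the rule. Among all genes, those with shared sequence had a median difference of 0.42 in this comparison and the others -0.13. The difference also moved with transcript GC (Spearman -0.43 across 9854 genes, a description). A scaling factor made within each of 10 GC bins was an alternative added after seeing the data. With it 2 splicing-factor genes were higher and 2 lower, against 4.67% and 7.05% of all genes.

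Marker levels differed between the fresh and cultured libraries as well. The summed level of the erythroid markers was 535 in fresh BFU-E, 2825 in the CD71 water culture and 748 in the CD71/CD24a water culture, and that of the early progenitor markers 518, 161 and 192. The neutrophil markers summed to 99.3, 26.4 and 6.38 in the same order, the megakaryocyte markers to 88.3, 42.1 and 46.9, and 7 hepatocyte markers to 30.4, 3.39 and 13.0. Their part in the differences between fresh and cultured cells was not tested.

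In the CD71/CD24a sort with water, 11 of 40 were at least 2-fold higher than in fresh BFU-E and 0 lower, against 11.2% higher and 12.9% lower among all 10080 genes. Of the 11, 7 had shared sequence and 4 did not, a split for which no share over all genes was computed. Tra2b was at 49.9, 4.08-fold higher (95% interval 3.78 to 4.41), Srsf3 at 93.0, 3.98-fold higher (3.74 to 4.25), and Hnrnpa1, a splicing repressor that also carries mRNA to the cytoplasm, at 56.2, 3.64-fold higher (3.32 to 4.00). The others, in family order, were Srsf1, at 171, Srsf10, at 45.8, Hnrnpa3, at 9.11, Hnrnpc, at 294, Hnrnpdl, at 114, Hnrnph1, at 210, Hnrnph2, at 38.3, and Mbnl1, at 151. Transcript GC content moved with this comparison: across 9876 genes the Spearman correlation of the difference with GC was -0.65, and across the 40 splicing-factor genes it was -0.62, given as descriptions over genes that share libraries. Genes with shared sequence had a median of 0.40 among all genes and the others -0.15. With GC-bin scaling 1 gene was higher and 1 lower, against 4.94% and 7.47% of all genes, and the Mbnl1 difference went from 1.11 to -0.04. The 2 water cultures share the fresh BFU-E library.

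**Figure D3:**
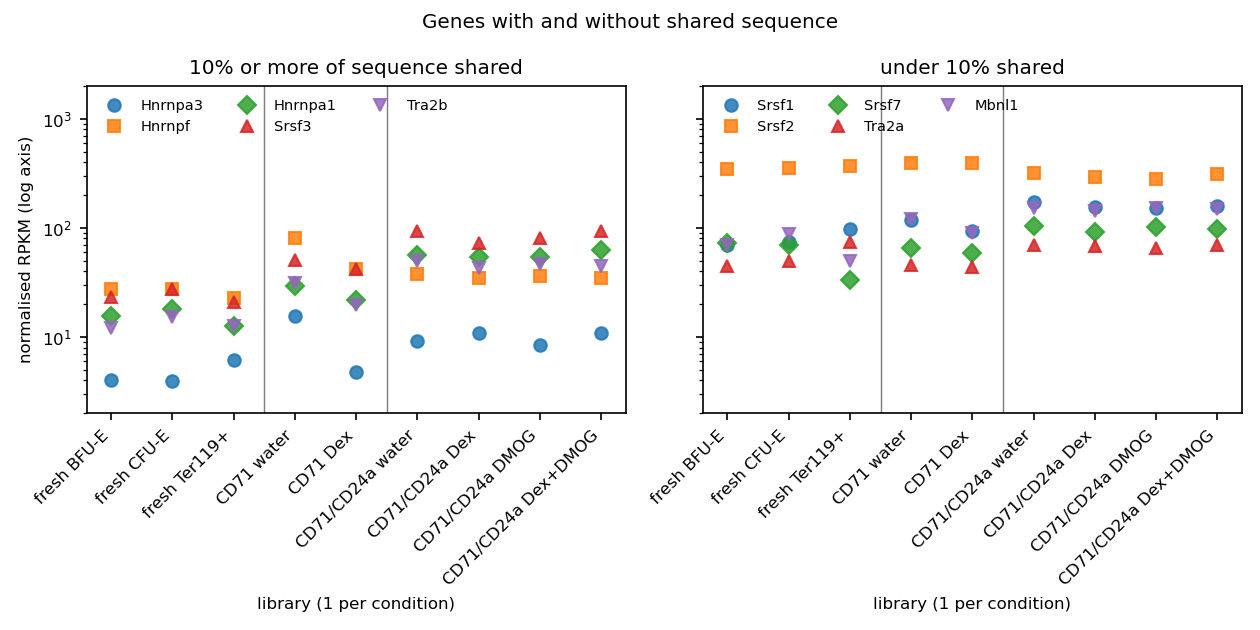
Normalised RPKM (log axis) in the 9 libraries, 1 per condition, of 5 genes with 10% or more shared sequence (left) and 5 with less (right), with grey lines between fresh cells, the CD71 sort and the CD71/CD24a sort. In the left panel Hnrnpa3 and Hnrnpf peak in CD71 water, at 15.5 and 81.4, and Hnrnpa1, Srsf3 and Tra2b are highest in the CD71/CD24a libraries.

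Dex was compared with no Dex in 3 culture pairs, and treatment and sort differences were fitted together over the 6 cultured libraries with limma, with Benjamini-Hochberg adjustment over 9535 genes. The fit had 2 residual degrees of freedom. Each condition was 1 culture, so the p-values measure the spread between these libraries about the additive model. Of the 40 splicing-factor genes at a mean of 1 or more, 0 passed an adjusted p of 0.05 for Dex, against 2.02% of all genes (193 genes). At an unadjusted p under 0.05 there were 5 of the 40 and 1540 of all genes, and the smallest adjusted p of the 40 was 0.194 (limma). The fitted Dex differences ran from -0.37 to 0.25, with a median of -0.02, and that of all genes was also -0.02.

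The sizes differed between the sorts. Hnrnpf, which with Hnrnph1 binds G-rich tracts, was at 81.4 with water and 42.2 with Dex in the CD71-sorted cells. Its CD71/CD24a levels were 37.6 with water and 34.7 with Dex, and at 36.6 and 34.6 in the DMOG pair. Hnrnpa3 was at 15.5 with water and 4.77 with Dex in the CD71 sort, and in the other pairs at 9.11 and 10.8, and 8.44 and 10.8. Tra2b was lower with Dex in all 3 pairs, at 30.9 and 19.8, 49.9 and 42.9, and 47.1 and 44.5. Hnrnpul2 was higher with Dex in all 3, at 57.1 and 59.6, 77.1 and 94.8, and 68.3 and 89.3. Hnrnph3 was at 11.6 and 11.4, 18.5 and 22.6, and 16.1 and 22.8. These were the 5 genes with the largest fitted differences, and none passed. The Dex difference had 1 sign in all 3 pairs for 16 of the 40. The share over all genes was not computed, so this count is no measure of how consistent these genes were.

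The count of 0 rests on the CD71 pair. Without the CD71 Dex library 6 passed (5 higher, 1 lower), and without the CD71 water library 7 passed (5 higher, 2 lower), against 12.0% and 13.2% of all genes. Either way the Dex difference comes from the 2 CD71/CD24a pairs alone, with 1 residual degree of freedom. The 6 genes called both times were Hnrnph3, with a difference of 0.38, Hnrnpul2, 0.34, Hnrnpd, an AU-rich element binder, 0.27, Hnrnpa3, 0.27, Hnrnpr, 0.25, and Srsf9, -0.27. Ptbp1, at -0.27, was called without the CD71 water library. With GC-bin scaling 1 gene passed in the fit of all 6 libraries, against 3.87% of all genes. It was Hnrnpd, at 0.30 with an adjusted p of 0.0343 (limma).

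**Figure D4:**
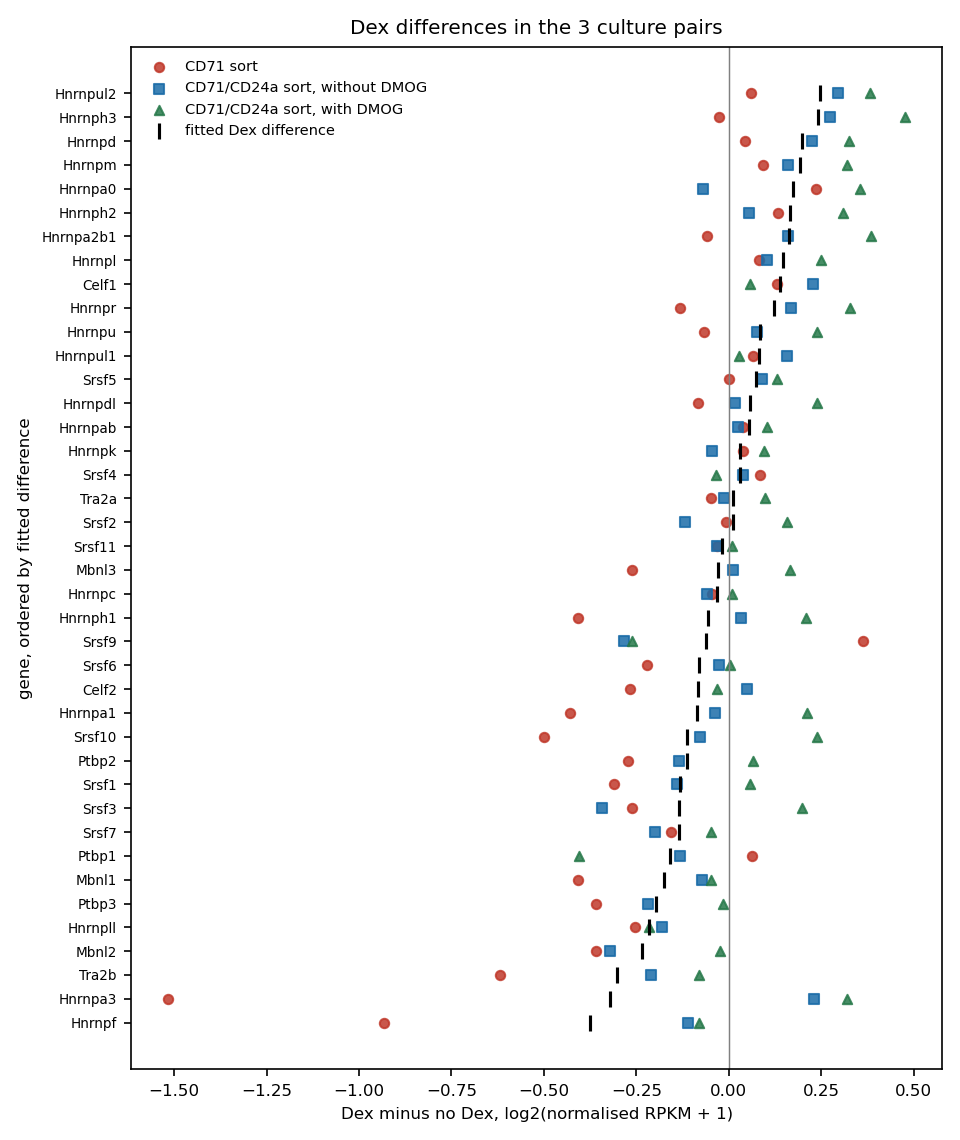
Dex minus no Dex in log2(normalised RPKM + 1) for the 40 genes (rows, ordered by the fitted difference, black ticks) in the 3 culture pairs, 1 library per arm. Most points lie within 0.5 of 0, and the CD71 points of Hnrnpa3 and Hnrnpf, at -1.52 and -0.93, lie far to the left of the other points of those genes.

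No splicing-factor gene passed for DMOG. Of 40, 0 reached an adjusted p of 0.05 (limma), against 0.021% of all genes (2 genes), and 2 of the 40 and 347 of all genes had an unadjusted p under 0.05. The fitted DMOG differences ran from -0.25 to 0.08, with a median of -0.06 against 0.00 for all genes. Srsf5 had the largest, at 166 with water and 138 with DMOG, and 177 with Dex and 151 with both agents. Hnrnpll followed, at 32.3 and 27.8, and 28.4 and 23.8. Both were lower with DMOG in the 2 pairs, as Srsf10 (45.8 and 34.8, 43.3 and 41.3), Hnrnph1 (210 and 172, 215 and 199) and Hnrnpc (294 and 254, 282 and 256) also were.

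The Dex difference with DMOG, minus the mean of those in the 2 pairs without it, passed for 0 of 40 genes (limma), against 0.0% of all genes. Since 1 of these 2 pairs is of the CD71 sort, the value also holds the difference between the sorts. At an unadjusted p under 0.05 there were 2 of the 40 and 275 of all genes. The median interaction was 0.21 for the splicing-factor genes and 0.00 for all genes, and 35 of the 40 were above 0, against 50.3% of all genes. This value also moved with transcript GC, with a Spearman correlation of -0.53 across 9344 genes, and with GC-bin scaling the median of the splicing-factor genes was 0.076. The number of libraries leaves 1 residual degree of freedom for this test.

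The Dex difference in the CD71 sort minus that in the CD71/CD24a sort passed for 7 of 40 genes, against 6.03% of all genes, with 1 residual degree of freedom and a spread mostly borrowed across genes (limma). It was -1.79 for Hnrnpa3 (adjusted p 1.29e-05), -0.84 for Hnrnpf, -0.58 for Srsf10, -0.53 for Hnrnph1, -0.52 for Hnrnpa1, -0.47 for Tra2b and 0.64 for Srsf9. The erythroid markers summed to 2825 with water and 1493 with Dex in the CD71 sort, to 748 and 514 in the CD71/CD24a sort and to 839 and 479 in its DMOG pair. Their part in these differences was not tested. Srsf9, a small SR protein, was at 63.1 with water and 81.4 with Dex in the CD71 sort, and lower with Dex in the others, at 55.5 and 45.4, and 50.7 and 42.1. In the CD71 sort the 6 other genes were higher with water than with Dex: Srsf10 at 28.4 and 19.8, Hnrnph1 at 121 and 91.3, Hnrnpa1 at 29.5 and 21.7. Of the 7, 5 are genes with shared sequence and 2, Hnrnph1 and Srsf9, are not. No share over all genes was computed for this split. The difference moved with transcript GC across all genes (Spearman 0.58 over 9344 genes), and with GC-bin scaling 2 of 40 passed, against 1.93% of all genes. The count was 0 with no filter on low values, 3 with 0.1 added in place of 1 and 3 on RPKM as deposited. Of all genes 0.218%, 4.22% and 4.72% passed in the same order.

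The largest contrast of the cultures was between the sorts, and here the splicing-factor genes were mostly higher in the CD71/CD24a libraries. Of 40 genes, 34 passed an adjusted p of 0.05 (limma), against 54.2% of all genes. In the CD71/CD24a sort 26 were higher and 8 lower, against 29.1% and 25.0% of all genes. In 28 of the 40 genes all 4 CD71/CD24a libraries lay above both CD71 libraries and in 9 all lay below, against 36.7% and 30.9% of all genes. The fitted difference is that between the pairs without DMOG, while the ranges given for the CD71/CD24a sort cover all 4 libraries. The median difference was 0.53 for the splicing-factor genes and 0.04 for all genes. The summed level of the 11 erythroid markers found was 1493 and 2825 in the CD71 sort and 479 to 839 in the CD71/CD24a sort, and that of the 9 neutrophil markers 26.0 and 26.4 against 5.31 to 6.38. The 7 hepatocyte markers summed to 3.39 and 6.00 against 11.5 to 14.5. Their part in the difference was not tested. The sorts were separate cultures, and their files were written with different floors, so sort, culture and processing cannot be told apart.

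Srsf5 had the largest difference, 1.35 ± 0.08 (SE; adjusted p 0.00102, limma), at 66.7 and 66.8 in the CD71 sort and 138 to 177 in the CD71/CD24a sort. Among the other SR and Tra2 genes, Srsf10 was at 19.8 and 28.4 against 34.8 to 45.8, Srsf3 at 42.0 and 50.6 against 73.0 to 93.2, and Tra2b at 19.8 and 30.9 against 42.9 to 49.9. None of these overlapped between the sorts. Srsf1 was at 94.3 and 117 against 152 to 171, Srsf7 at 58.5 and 65.4 against 91.3 to 105, and Tra2a at 43.9 and 45.4 against 65.5 to 70.2. Of the 10 SR genes tested 7 were higher and 3 lower. The lower ones were Srsf9, Srsf4, at 69.5 and 73.7 against 47.6 to 55.1, and Srsf2, at 395 and 397 against 281 to 316.

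Of the 20 hnRNP genes 12 were higher and 3 lower. Hnrnpa1 differed by 1.10 (21.7 and 29.5 against 54.3 to 63.0), Hnrnph1 by 1.01 (91.3 and 121 against 172 to 215), Hnrnpa2b1 by 0.96 (313 and 327 against 501 to 661), Hnrnpc by 0.79 (163 and 169 against 254 to 294) and Hnrnph2 by 0.78 (21.2 and 23.4 against 33.2 to 41.4). Hnrnpk differed by 0.50, at 101 and 104 against 143 to 157. The lower ones were Hnrnpa0 (-0.74; 202 and 238 against 112 to 143), Hnrnpf (-0.68) and Hnrnpul1 (-0.36). Hnrnpl, at 196 and 208 against 163 to 194, and Hnrnpll, at 24.8 and 29.8 against 23.8 to 32.3, did not pass.

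The PTB genes split. Ptbp1, the broadly expressed repressor of pyrimidine-tract exons, was at 343 and 358 in the CD71 sort and 151 to 200 in the CD71/CD24a sort, a difference of -1.03 ± 0.12 (SE). Ptbp2, whose exon skipping by Ptbp1 is a textbook case of cross-regulation, was at 1.86 and 2.45 against 3.75 to 4.47 (0.73), and Ptbp3 at 25.7 and 33.2 against 39.5 to 46.2 (0.53). With GC-bin scaling Ptbp1 still passed, at -0.82, while Ptbp2 was at 0.26 (adjusted p 0.0674, limma) and Ptbp3 at -0.08 (adjusted p 0.332). All 3 MBNL genes were higher in the CD71/CD24a sort, Mbnl1 by 0.49 (90.3 and 120 against 143 to 154), Mbnl2 by 0.47 (2.77 and 3.84 against 4.29 to 5.62) and Mbnl3 by 0.52 (6.27 and 7.72 against 10.3 to 11.7). With GC-bin scaling only Mbnl2 of the 3 passed, at 0.43, and Mbnl1 was at -0.14 (adjusted p 0.144, limma) and Mbnl3 at 0.13 (adjusted p 0.285). Celf1 was lower (-0.28), at 55.2 and 60.6 against 43.7 to 51.3, and Celf2, with a difference of 0.27, did not pass.

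Transcript GC content moved with the sort difference. The Spearman correlation was -0.66 across 9344 genes and -0.57 across the 40 splicing-factor genes, whose transcripts are low in GC, with a median of 44.1% against 50.4% for all genes. The 24 splicing-factor genes under 45% GC had a median sort difference of 0.64, and all 2087 such genes a median of 0.47. The 8 at 50% or more had -0.38, and all such genes -0.23. With GC-bin scaling 19 passed, 13 higher and 6 lower, with a median of 0.07, against 42.3% of all genes. Of the 34 genes called before, 17 were called again, all in the same direction. Srsf5 was then at 0.91, Hnrnpa1 at 0.84, Hnrnph1 at 0.57, Hnrnpa2b1 at 0.53 and Ptbp1 at -0.82. The other 17 no longer passed, and 7 of them had the opposite sign. Among the SR and Tra2 genes these were Srsf1 (-0.0014), Srsf3 (0.20), Srsf4 (0.0054), Srsf6 (-0.018), Srsf7 (0.028), Srsf9 (-0.11) and Tra2a (0.18). Among the hnRNP genes they were Hnrnpd (0.066), Hnrnph2 (0.17), Hnrnpk (0.066), Hnrnpr (-0.017), Hnrnpu (-0.19) and Hnrnpul1 (-0.15), and the rest were Mbnl1, Mbnl3, Ptbp2 and Ptbp3. On RPKM as deposited 30 were higher and 2 lower, against 40.8% and 15.1% of all genes. Without the CD71/CD24a Dex library 21 passed (18 higher, 3 lower), against 22.9% of all genes.

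**Figure D5:**
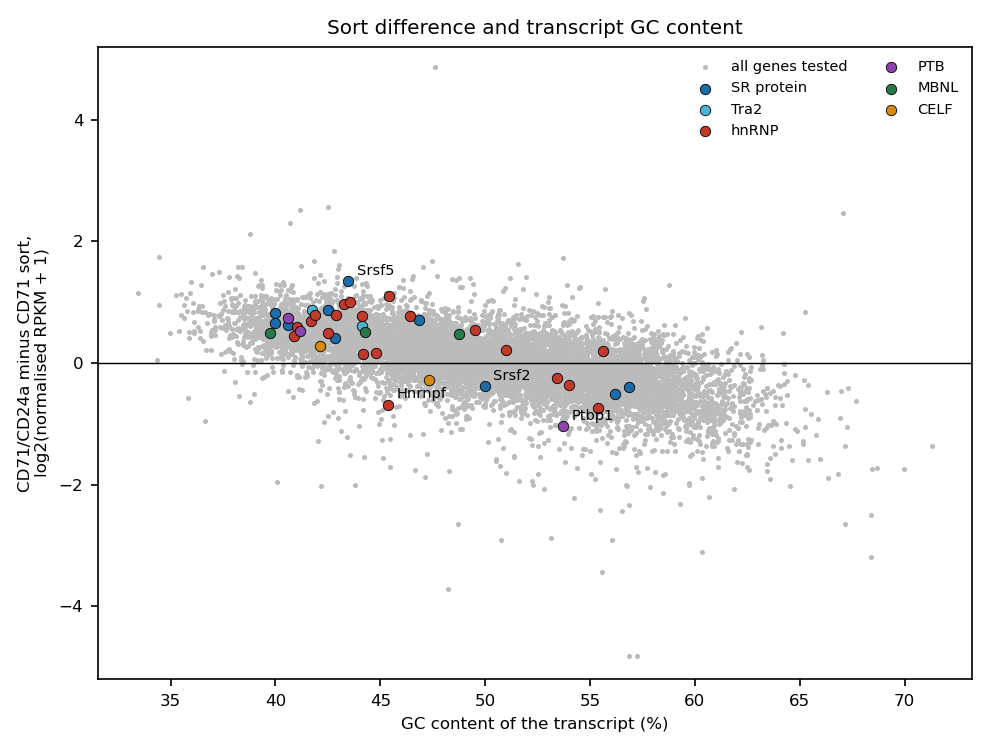
Difference between the sorts in log2(normalised RPKM + 1) against the GC content of the transcript (%). All genes tested are grey and the splicing-factor genes are coloured by family. The limma fit used 2 CD71 and 4 CD71/CD24a libraries, and its sort difference is that between the pairs without DMOG. The cloud falls from left to right, and most splicing-factor genes lie on the left at values above 0, while Ptbp1 lies at -1.03.

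The other lists were counted in the same way. In the sort comparison, where 29.1% of all genes were higher in the CD71/CD24a sort and 25.0% lower, 17 of 45 core spliceosome genes were higher and 11 lower, with a median of 0.11. Of 13 kinases, methylases and importers 6 were higher and 1 lower, of 34 other regulators 17 higher and 7 lower, and of 14 decay genes 5 higher and 3 lower. Rbm38 was at 119 and 130 against 32.5 to 46.2. For Dex, DMOG and their interaction 0 genes of these 4 lists passed (limma).

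For genes with several transcript records, the ratio between records gives a coarse view of transcript forms. In Hnrnpa2b1 the lowest record stood at 51.8% to 55.3% of the highest in the 3 fresh and 2 CD71 libraries and at 66.5% to 67.7% in the 4 CD71/CD24a libraries, without overlap. In Hnrnpa1 it was 31.8% in BFU-E, 46.6% in CFU-E and 60.6% in Ter119-positive cells, and 64.3% to 81.3% in culture. In Hnrnpa3 it was 70.8% to 103% in the fresh and CD71 libraries and 26.6% to 44.8% in the CD71/CD24a libraries. All 3 genes are among the 12 with shared sequence (10.9%, 47.9% and 90.6%, in the order given), and a record's RPKM mixes reads of exons common to all records, so these percents are not splicing levels. Low ratios were not limited to genes with shared sequence. The lowest record was at 65.6% to 91.8% in Hnrnpul1 (2.02% shared) and at 83.5% to 88.6% in Celf2 (0% shared). In Srsf10 (21.9% shared) it was at 66.8% to 85.2%. In 11 of the 17 genes with several records the lowest stayed above 90% of the highest in each library with a value.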

How the data were processed

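RNA-seq was read from 9 files with 23041 RefSeq records each. Values were RPKM as deposited by the authors, on mm9 per the submitters' processing notes. Aligner, counter and strand use are not given in the sources used here. An exact 1 in the 4 CD71/CD24a files, which held no 0, was read as 0. Of the records, 22397 were named from a RefSeq table, 114 from GENCODE, and 530 had no name. Each library was divided by a median-ratio factor over 6888 genes, from 0.419 (Ter119-positive) to 1.18. Low values were whole multiples of 1 read (tolerance 0.1) for 67.2% to 70.3%, against 20% by chance, with transcript lengths from GRCm38. Fresh libraries were compared by a 2-fold rule. Cultured libraries were fitted with limma 3.58.1 (pseudocount 1, mean of 1 or more, sort, Dex and DMOG as terms), checked on simulated data. Named genes were those past a rule (the 10 largest), or the 5 largest where fewer than 5 passed, with a set of 21 commonly studied genes; of the other lists, up to 3 in each direction. Alternatives were other scaling, pseudocount 0.1, no filter, exact 1 kept, mean over records, genes with shared sequence left out, no pair term, each library left out, and GC-bin scaling. Members and lists were chosen with earlier results of these data known.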

Additional observations from a re-analysis of the deposited data

Results flagged for a closer look

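For 7 of 40 genes the Dex difference in the CD71 sort differed from that in the CD71/CD24a sort. The test was of the difference itself (limma, adjusted over 9535 genes), and 6.03% of all genes passed. The values, in log2, were -1.79 for Hnrnpa3, -0.84 for Hnrnpf, -0.58 for Srsf10, -0.53 for Hnrnph1, -0.52 for Hnrnpa1, -0.47 for Tra2b and 0.64 for Srsf9. In the CD71 sort the water library held the higher level of the first 6 genes and the lower level of Srsf9. The count was 0 with no filter on low values, 3 with pseudocount 0.1, 3 on RPKM as deposited and 2 with GC-bin scaling. Of all genes 0.218%, 4.22%, 4.72% and 1.93% passed in the same order. Each CD71 arm is 1 library, so a difference of 1 culture and a difference of the sort cannot be told apart.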

How the results depend on the processing

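From CFU-E to Ter119-positive cells 5 genes passed 2-fold, against 23 on RPKM as deposited, where Srsf4 was at -0.091, and 8 with upper-quartile scaling. Of all genes 51.4%, 68.7% and 51.9% passed in the same order. From fresh BFU-E to water cultures, leaving out genes with shared sequence left 28 of the 40. Of these 28, 0 passed in the CD71 sort, instead of 4 of 40. In the CD71/CD24a sort 4 of the 28 passed, all higher, instead of 11 of 40. Among all genes, those with shared sequence included, 6.27% and 11.2% were at least 2-fold higher and 9.06% and 12.9% lower. With GC-bin scaling, added after seeing the data, 4 passed in the CD71 sort, 2 higher and 2 lower, against 11.7% of all genes. In the CD71/CD24a sort 2 passed, against 12.4% of all genes, and Mbnl1 was at -0.037. For Dex the count was 1 with GC-bin scaling, against 3.87% of all genes. It was 0 to 7 when each library was left out, against 1.38% to 13.2% of all genes. The Hnrnpa3 difference ran from -0.64 to 0.27, the latter without either CD71 library. For DMOG, a fit with no term for the culture pair gave 0.42 for Srsf5, 0.21 for Srsf10, 0.30 for Hnrnph1 and 0.22 for Hnrnpc, since both DMOG libraries are of the CD71/CD24a sort. When each library was left out, the Srsf10 difference ran from -0.49 to 0.037, the latter without the CD71/CD24a DMOG library. The Dex difference by sort passed for 3 genes on RPKM as deposited, 3 with pseudocount 0.1 and 0 with no filter. It passed for 2 of the 28 genes without shared sequence and for 2 with GC-bin scaling. Of all genes 4.72%, 4.22%, 0.218%, 6.03% and 1.93% passed in the same order. The cause of these changes was not tested. The sort difference passed for 19 genes with GC-bin scaling, and for 21 to 37 when each library was left out, an alternative also added after seeing the data. Among all genes the shares that passed were 42.3% and 22.9% to 65.8%, in the same order. The highest count and the highest share are from the fit without the CD71 water library, where the CD71 sort is 1 library. Leaving out 1 library leaves 1 residual degree of freedom, and a lone library is assumed to vary like the others. The treatment fits pair libraries by their shared culture, and the fit with no such term is the alternative given for DMOG. Replicate numbers pair no libraries, since each condition has 1. At the lowest depth 3 reads on 1 kb correspond to 0.253 RPKM, so levels near or below that rest on few reads.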
